A study of Homo sapiens with 8 samples.

Results

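Autophagy machinery genes encode the proteins that build an autophagosome, a double membrane that encloses cytoplasm and delivers it to the lysosome. A list of 37 such genes was followed in RNA-seq libraries of human cell lines, and all 37 had a row among the 19305 RefSeq accessions counted and passed the filter on low counts. The list groups genes by function: the ULK1 initiation kinase complex, the lipid kinase complex, lipid transfer and phagophore growth, the conjugation enzymes and ATG4 proteases, the ATG8 proteins, cargo receptors and the TFEB regulators. The series is about how stem cells keep making protein under stress, and the libraries used here deplete eIF2A, an initiation factor able to deliver initiator tRNA to the ribosome. HEK293T, a line from human embryonic kidney, carried eIF2A siRNA or control siRNA, and both groups had received sodium arsenite, an oxidative stressor. H9 cells, which are human embryonic stem cells, carried eIF2A shRNA or control shRNA, and no arsenite is named for it. Each of the 4 groups had 2 libraries, which the labels number as sets without saying that they came from separate cultures, so the p-values reflect only how far these samples lie apart, and that spread may be technical. The labels give neither the sequence nor the number of the siRNAs and shRNAs, and line, arsenite and the kind of RNA interference cannot be told apart.

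Autophagy starts when the ULK1 kinase complex, held back by mTORC1 in fed cells, activates the class III phosphatidylinositol 3-kinase complex around BECN1. The lipid it makes recruits WIPI proteins and the ATG2 lipid channels to a membrane seeded by ATG9A vesicles. A ubiquitin-like cascade then couples ATG8 proteins (the LC3 and GABARAP families) to phosphatidylethanolamine in the growing membrane. Receptors such as NBR1 and TAX1BP1 tie cargo to lipidated ATG8, and TFEB and TFE3 switch on autophagy and lysosome genes through the E-box core CACGTG, so transcript levels tell only part of how active the pathway is.

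Promoters of the listed genes were searched for that core, because TFEB and TFE3 are themselves on the list. RefSeq promoter entries (GRCh38.p14, from 250 bases before to 50 bases after the transcript start) existed for 33 of the 37 genes. CACGTG, which reads the same on both strands, stood in the windows of 2 of these 33 genes (6.06%), ATG3 and ATG14, compared with 8.77% of the 27305 genes with an entry. In a separate list of 38 lysosomal genes, 23 had an entry and the core stood in 10 of these 23 (43.48%). That share describes genome sequence alone and tests nothing in these libraries. The core lies near the start of both genes, at -18 and again at 6 in ATG3 and at -21 in ATG14, counted from the start to the motif's first base. Both windows run from 60 bases before the start to 20 bases after it on the minus strand, chr3:112561943-112562022 for ATG3 and chr14:55411811-55411890 for ATG14, with the core in capitals.
ATG3: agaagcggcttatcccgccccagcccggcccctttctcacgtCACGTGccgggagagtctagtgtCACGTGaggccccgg
ATG14: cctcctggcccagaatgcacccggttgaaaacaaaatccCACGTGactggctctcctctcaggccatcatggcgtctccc
A match describes letters in this window and is not a binding site shown in these cells.

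Base composition is shown next, because the H9 changes described below followed the GC content of the transcripts. The listed transcripts differ widely in it, and the middle of the coding sequence of the receptor TAX1BP1 and of the protease ATG4D shows what that means. Each stretch is 120 bases of the GENCODE v29 transcript on GRCh38 with G and C in capitals, and spans 2 exons, chr7:27792150-27793104 on the plus strand for TAX1BP1 and chr19:10547057-10547249 on the plus strand for ATG4D.
TAX1BP1: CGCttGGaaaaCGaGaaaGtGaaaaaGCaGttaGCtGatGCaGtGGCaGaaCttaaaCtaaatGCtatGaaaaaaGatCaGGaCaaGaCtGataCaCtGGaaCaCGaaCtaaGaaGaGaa
ATG4D: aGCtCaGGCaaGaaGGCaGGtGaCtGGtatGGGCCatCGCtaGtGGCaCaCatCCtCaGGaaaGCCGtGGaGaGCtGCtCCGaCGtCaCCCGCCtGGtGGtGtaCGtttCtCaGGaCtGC
G and C make up 39.2% of the TAX1BP1 stretch and 60% of the ATG4D stretch, and 39.2% and 64.8% of the whole transcripts.

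Gene counts per library ranged from 21837052 to 32318668. EIF2A stood at 5.58 and 5.98 CPM (counts relative to the TMM-scaled library total) with eIF2A siRNA, against 17.5 and 18.3 CPM with control siRNA in HEK293T. In H9 it stood at 5.03 and 4.67 CPM with eIF2A shRNA, against 15.8 and 14.8 CPM with control shRNA, so the target was low in every knockdown library. Pluripotency markers in H9 summed to 5956 and 6045 CPM with eIF2A shRNA and to 6379 and 6397 CPM with control shRNA. All 10 genes were detected there. In HEK293T libraries they summed to 160.1 to 171.1 CPM, with 4 to 6 of the 10 at 0. In H9, 4 of the 10 rose and 5 fell with eIF2A shRNA, where 37% of all genes rose and 34.3% fell. With the trend in base composition described below removed, 2 were higher and 8 lower, against 22.1% and 27.5% of all genes. POU5F1 had a mean of 127.6 CPM with eIF2A shRNA against 178.7 CPM with control shRNA, and L1TD1 145.0 CPM against 72.2 CPM. The HEK293T libraries held PAX2, LHX1 and EMX2 of the nephron lineage at 3.60 to 5.67 CPM per group mean, while the tubule marker UMOD was at 0 in every library. In the same list PAX8 and NPHS1 were lower in HEK293T, with PAX8 at a mean of 6.23 CPM in H9 controls against 0.0436 CPM in HEK293T controls and NPHS1 at 1.27 CPM in H9 controls against 0.0375 CPM in HEK293T controls. Neural markers in H9 summed to 180.7 and 181.9 CPM with eIF2A shRNA against 359.8 and 376.3 CPM with control shRNA. Most of this was TUBB3 (means of 164.4 CPM with eIF2A shRNA and 352.2 CPM with control shRNA). Of the 8 tested 3 fell and 2 rose, where 34.3% of all genes fell and 37% rose. DCX (2.22 CPM with eIF2A shRNA, 0.772 CPM with control shRNA) and MAP2 (10.7 CPM with eIF2A shRNA, 8.48 CPM with control shRNA) were higher. With the trend removed 0 of the 8 were called higher and 3 lower, against 22.1% and 27.5% of all genes. Fibroblast markers summed to 844.7 and 857.4 CPM with eIF2A shRNA and to 976.6 and 981.2 CPM with control shRNA, and most of this was THY1. LUM, DCN and FAP of that list were at 0 in H9 controls and COL3A1 had a mean of 0.237 CPM. Among the fibroblast markers THY1 fell (means of 593.0 CPM with eIF2A shRNA and 791.3 CPM with control shRNA). COL1A1 (121.0 CPM with eIF2A shRNA, 88.2 CPM with control shRNA) and COL1A2 (134.8 CPM with eIF2A shRNA, 96.9 CPM with control shRNA) rose. With the trend removed 2 of the 5 fibroblast markers tested were higher and 2 lower, against 22.1% and 27.5% of all genes. Mesoderm and endoderm markers summed to 4.16 to 6.86 CPM and trophoblast markers to 16.3 to 26.2 CPM in H9 libraries. Nearly all of the trophoblast sum was KRT7 (means of 16.3 CPM with eIF2A shRNA and 25.8 CPM with control shRNA). No other trophoblast marker passed a group mean of 0.162 CPM in H9. Reads that fell in no counted feature made up 20.84 and 20.63% of reads with eIF2A shRNA and 18.84 and 18.39% with control shRNA. In HEK293T they made up 14.98 and 14.95% with eIF2A siRNA and 15.59 and 17.68% with control siRNA, and the part of these differences in the results below was not tested.

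To ask what eIF2A depletion does to these transcripts, eIF2A knockdown was compared with control in each line by edgeR's quasi-likelihood test, and a gene was called at a Benjamini-Hochberg adjusted p under 0.05 over 14565 genes. In arsenite-treated HEK293T the changes were few and small. With eIF2A siRNA, 7 of the 37 rose, 4 fell and 26 were not called, where 28.7% of all genes tested were called, 14.1% higher and 14.7% lower. The rises were GABARAPL1, ATG12, NBR1, WIPI2, GABARAPL2, MAP1LC3B and ULK1, the falls RB1CC1, WIPI1, ATG2A and ATG7, and log2 fold changes over the list ran from -0.52 to 0.40 with a median of 0.10 (0.00 over all genes). With the trend in base composition described below removed, 9 were higher and 4 lower, against 14.7% and 13.0% of all genes. In H9 nearly the whole list was called: 17 rose, 16 fell and 4 were not called, where 71.3% of all genes were called, 37% higher and 34.3% lower. Log2 fold changes ran from -0.92 to 1.42 with a median of 0.03 (0.02 over all genes), and the 6 changes of at least 2-fold were rises, in ATG2B, TAX1BP1, PIK3R4, RB1CC1, PIK3C3 and UVRAG, where 15.9% of all genes rose and 0.899% fell by as much. With each library scaled by DESeq2's size factors instead, the median of all genes in H9 shifted to -0.13, and 14 members were called higher and 19 lower. In HEK293T the knockdown libraries lay above both controls for 21 of the 37 members and below both for 7, against 28.7% and 30.1% of all genes. In H9 these were 19 and 18 members, against 43.9% and 41% of all genes, so a lack of overlap was common. In a bulk sample, fewer cells of a type and less RNA per cell cannot be told apart.

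**Figure D1:**
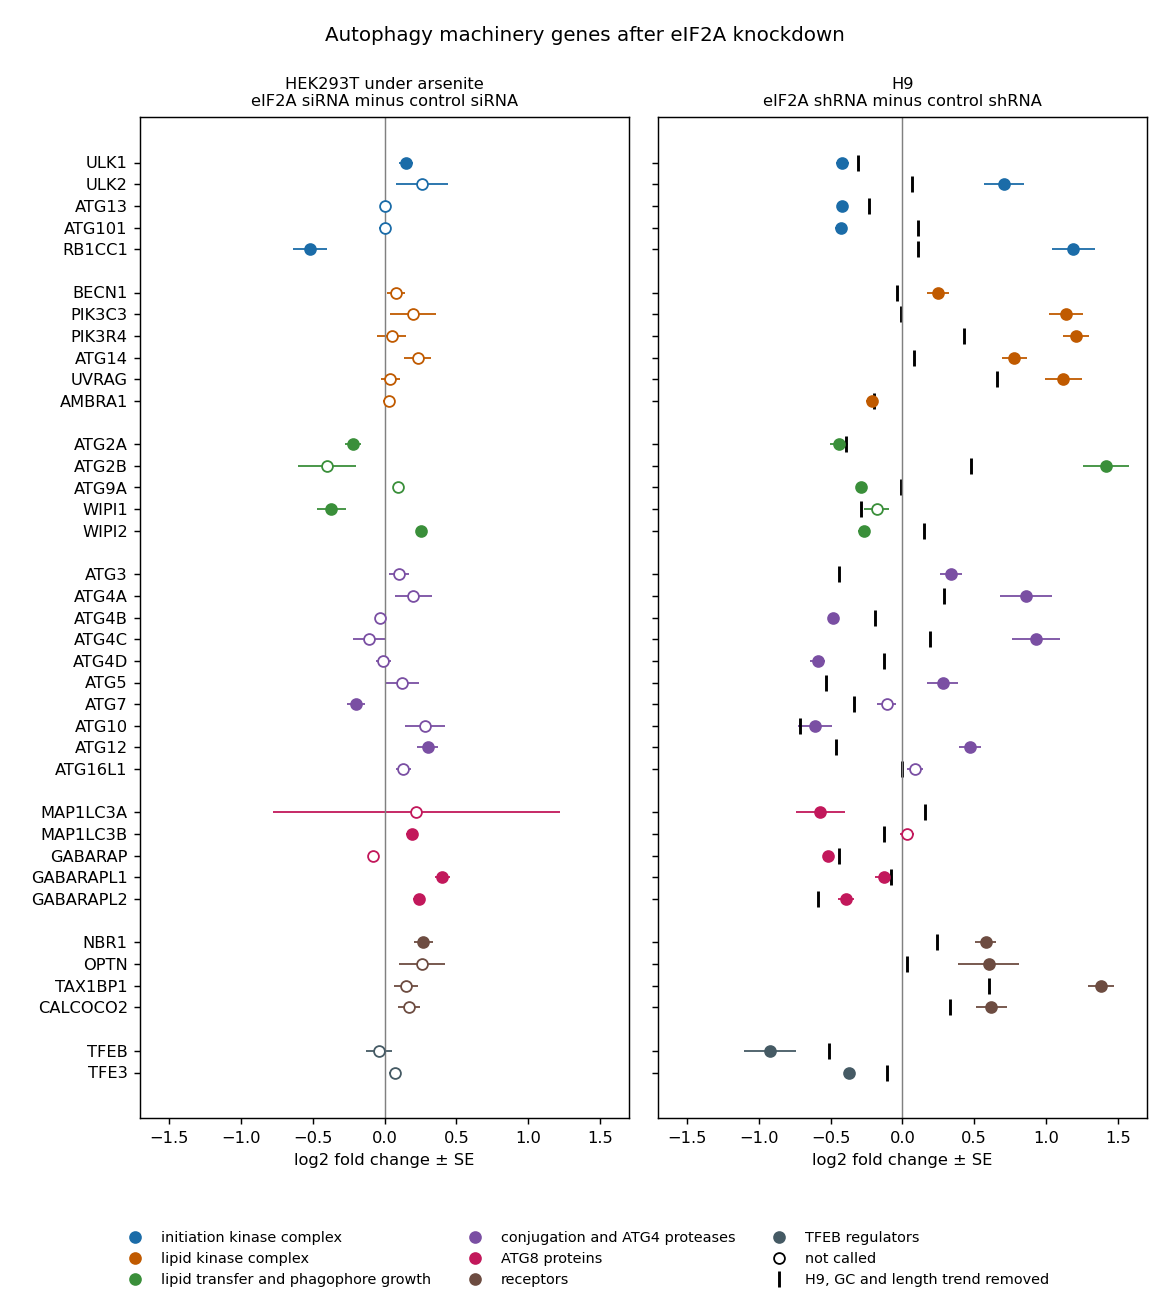
Log2 fold change (horizontal axis, ± SE) of each of the 37 genes (vertical axis, grouped by role) after eIF2A knockdown, in HEK293T under arsenite on the left and in H9 on the right. Filled circles are called at an adjusted p under 0.05 and open circles are not, and black ticks give the H9 value with the GC and length trend removed. HEK293T values lie within -0.52 to 0.40, while H9 values spread from -0.92 to 1.42 and the ticks from -0.71 to 0.66.

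The H9 changes followed base composition. Across the 37 genes, the H9 log2 fold change fell with the transcript's GC content (Spearman correlation -0.81, against -0.68 over 14489 genes with a matched transcript), a correlation across genes that share the same libraries. Of the 13 members under 45% GC, 12 rose and 1 fell, with a median of 0.86 (0.85 over all genes in that range). From 45 to 55% GC, 5 of 13 rose and 4 fell, with a median of 0.03 (0.05 over all genes). All 11 members above 55% GC fell, with a median of -0.43 (-0.36 over all genes), so the members lay near other genes of like composition. The Spearman correlation with transcript length was 0.51 over the members and 0.45 over all genes. HEK293T showed little of this, with a Spearman correlation of -0.18 for GC over the members and -0.10 over all genes.

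Each change was therefore also fitted with each library's GC and length trend removed. In H9, 6 of the 17 rises kept their call (PIK3R4, UVRAG, ATG2B, NBR1, TAX1BP1 and CALCOCO2), 8 were no longer called and 3 (ATG3, ATG5 and ATG12) were called lower. Of the 16 falls, 11 kept their call, ATG9A, GABARAPL1 and MAP1LC3A lost it, and ATG101 and WIPI2 were called higher. That fit called 8 members higher and 17 lower, against 22.1% and 27.5% of all genes, and none reached 2-fold. What lies behind the trend was not tested.

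**Figure D2:**
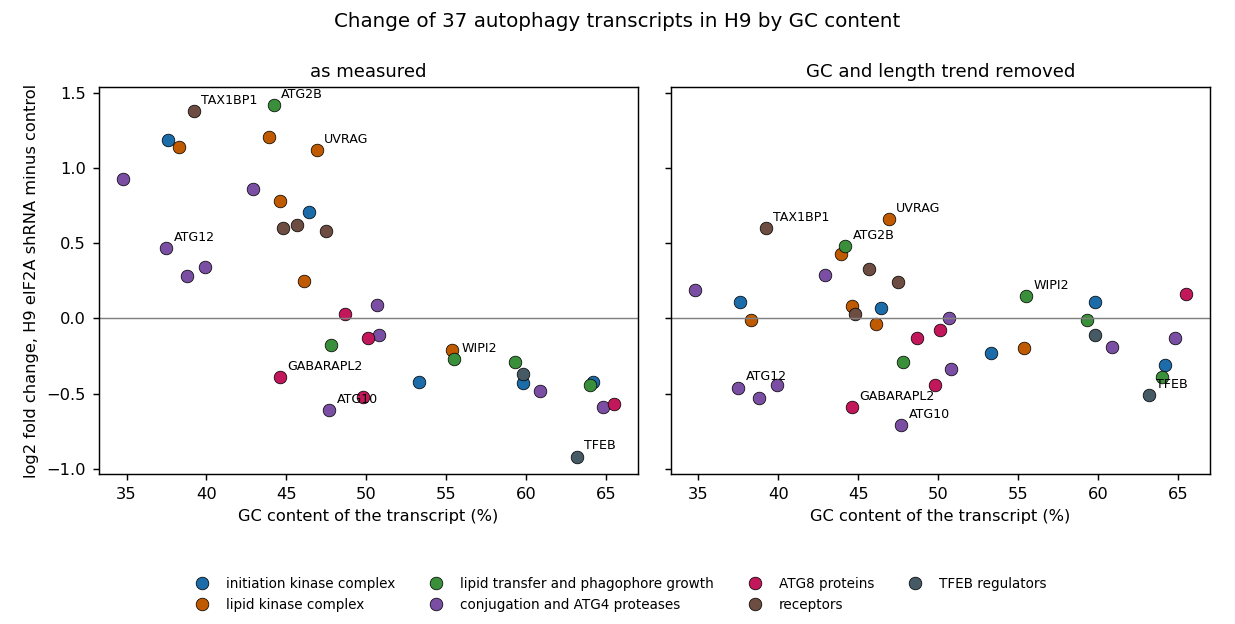
Log2 fold change in H9, eIF2A shRNA minus control shRNA (vertical axis), against the GC content of the transcript in percent (horizontal axis) for the 37 genes, coloured by role, with measured values on the left and values after removal of the GC and length trend on the right. On the left the 11 genes above 55% GC all lie below 0 and 12 of the 13 under 45% lie above it; on the right UVRAG (0.66) and TAX1BP1 (0.60) are the highest and ATG10 (-0.71) the lowest.

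The initiation complex moved in different directions within each line. ULK1, the kinase that starts autophagosome formation, had 59.0 and 54.9 CPM with eIF2A siRNA against 53.8 and 49.3 CPM with control siRNA in HEK293T, and 92.0 and 91.8 CPM with eIF2A shRNA against 120.4 and 124.8 CPM with control shRNA in H9. Neither line's groups overlapped, and ULK1 was higher in the HEK293T knockdown (log2 fold change 0.15 ± 0.050 SE, adjusted p = 0.023) and lower in the H9 knockdown (-0.42 ± 0.045, adjusted p = 3.8e-10; -0.31 with the trend removed). The HEK293T call was lost without the first eIF2A siRNA library (0.10, adjusted p = 0.31), without the second control library (0.08, adjusted p = 0.31) and with DESeq2 (adjusted p = 0.099). RB1CC1, the FIP200 scaffold of the complex, had 5.20 and 5.39 CPM with eIF2A siRNA against 7.62 and 7.60 CPM with control siRNA in HEK293T. The H9 levels were 6.88 and 6.36 CPM with eIF2A shRNA against 2.80 and 3.01 CPM with control shRNA. Every HEK293T knockdown library thus lay below both controls (-0.52 ± 0.12, adjusted p = 6.3e-04) and every H9 knockdown library above both (1.19 ± 0.15, adjusted p = 1.1e-08), but with the trend removed the H9 value was 0.11 and not called. ULK2, a second kinase of the family, had 7.15 and 8.27 CPM with eIF2A shRNA and 4.52 and 4.89 CPM with control shRNA in H9, without overlap. Its log2 fold change was 0.71 ± 0.14 there, 0.07 with the trend removed, and 0.26 ± 0.18 and not called in HEK293T. The adaptor subunits ATG13 and ATG101 fell alike in H9 (-0.42 ± 0.035 and -0.43 ± 0.041) and lay at 0.00 in HEK293T, and with the trend removed ATG13 stayed lower in H9 (-0.23) while ATG101 was called higher (0.11).

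Among the lipid kinase genes, none of 6 was called in HEK293T and 5 of 6 rose in H9, where 28.7% of all genes were called in HEK293T and 37% rose in H9. Removing the trend left 2 of the 6 called higher and 1 lower in H9, against 22.1% and 27.5% of all genes. PIK3R4, the VPS15 subunit that holds the kinase complex together, had 22.8 and 21.1 CPM with eIF2A shRNA against 9.98 and 8.99 CPM with control shRNA in H9. Its knockdown libraries lay above both controls (1.21 ± 0.091, adjusted p = 6.1e-14) and the call held with the trend removed (0.43). PIK3C3, the VPS34 catalytic subunit, had 10.1 and 11.2 CPM with eIF2A shRNA against 5.04 and 4.59 CPM with control shRNA, a change of 1.14 ± 0.12 that came to -0.01 with the trend removed. UVRAG, which binds BECN1 in the endosomal and late autophagic form of the complex, had 8.97 and 8.40 CPM with eIF2A shRNA against 3.78 and 4.25 CPM with control shRNA. The groups did not overlap (1.12 ± 0.13, adjusted p = 1.5e-09), and UVRAG kept its call at 0.66 without the trend. ATG14, the subunit of the autophagy-specific form whose promoter is shown above, had 23.0 and 22.4 CPM with eIF2A shRNA against 13.9 and 12.5 CPM with control shRNA (0.78 ± 0.088; 0.08 with the trend removed). BECN1, the scaffold, rose by 0.25 ± 0.078, was not called with DESeq2's size factors and was at -0.04 with the trend removed, and AMBRA1, a BECN1 regulator, fell by 0.21 ± 0.041 (-0.20 with the trend removed). In HEK293T the same 6 genes lay between 0.03 and 0.23.

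Lipid transfer and WIPI genes held both small HEK293T changes and the largest H9 rise of the list. WIPI2, the lipid reader that recruits the conjugation machinery, had 198.5 and 196.7 CPM with eIF2A siRNA against 168.4 and 163.0 CPM with control siRNA in HEK293T. In H9 the levels were 148.0 and 152.2 CPM with eIF2A shRNA against 180.3 and 182.2 CPM with control shRNA. The knockdown libraries were the higher ones in HEK293T (0.25 ± 0.034, adjusted p = 4.7e-07) and the lower ones in H9 (-0.27 ± 0.036, adjusted p = 2.7e-08), with overlap in neither, and with the trend removed the H9 value turned to 0.15. WIPI1, its relative, had 7.75 and 7.60 CPM with eIF2A siRNA against 10.4 and 9.52 CPM with control siRNA in HEK293T, all below the controls (-0.37 ± 0.10, adjusted p = 0.0051). It was not called in H9 as measured (-0.18 ± 0.087), but was called lower with the trend removed (-0.29, adjusted p = 0.0057) and with DESeq2's size factors (-0.34, adjusted p = 0.00063). ATG2A, a lipid channel, had 73.9 and 70.4 CPM with eIF2A siRNA against 92.1 and 77.3 CPM with control siRNA in HEK293T. The control libraries were far apart, and the fall (-0.22 ± 0.059, adjusted p = 0.0068) was not called without the first control library (-0.10, adjusted p = 0.13), without the second eIF2A siRNA library (-0.18, adjusted p = 0.089) or with the trend removed (-0.07). In H9, ATG2A fell by 0.44 ± 0.064 (-0.39 with the trend removed). ATG2B, the second lipid channel, had 7.23 and 7.46 CPM with eIF2A shRNA against 2.38 and 3.11 CPM with control shRNA in H9, where knockdown libraries stood well above both controls. Its rise of 1.42 ± 0.16 (adjusted p = 6.6e-10) was 0.48 with the trend removed and still called, and its HEK293T value was -0.40 ± 0.20 and not called. ATG9A, the membrane scramblase on the seed vesicles, fell by 0.29 ± 0.036 in H9, a change that came to -0.01 with the trend removed. In HEK293T its knockdown libraries lay above both controls, narrowly short of a call (0.09 ± 0.034, adjusted p = 0.051). It was called higher there with the trend removed (0.13, adjusted p = 0.0014), with limma-voom and without a filter.

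The conjugation enzymes and ATG4 proteases, 10 genes, showed 1 rise and 1 fall in HEK293T and 5 rises and 3 falls in H9. Of all genes, 14.1% rose and 14.7% fell in HEK293T, and 37% rose and 34.3% fell in H9. After removal of the trend, none of the 10 was called higher in H9 and 7 were called lower, against 22.1% and 27.5% of all genes. ATG12, the ubiquitin-like protein joined to ATG5, had 21.3 and 22.4 CPM with eIF2A siRNA against 17.3 and 18.0 CPM with control siRNA in HEK293T, and 23.1 and 26.0 CPM with eIF2A shRNA against 17.6 and 17.8 CPM with control shRNA in H9. Its knockdown libraries lay above both controls in both lines (0.30 ± 0.073, adjusted p = 0.0014, and 0.47 ± 0.077, adjusted p = 1.7e-06), yet with the trend removed ATG12 was higher in HEK293T (0.33) and lower in H9 (-0.46). ATG7, the activating enzyme of both conjugation branches, had 27.0 and 27.1 CPM with eIF2A siRNA against 32.8 and 29.7 CPM with control siRNA in HEK293T (-0.20 ± 0.061, adjusted p = 0.012). That call was lost with DESeq2 (adjusted p = 0.069), without the first control library (-0.13, adjusted p = 0.15) and without either eIF2A siRNA library (adjusted p = 0.071 and 0.064). In H9, ATG7 was at -0.11 ± 0.066 and not called as measured, and was called lower with the trend removed (-0.34, adjusted p = 4.2e-05). ATG3 and ATG5, which also have AT-rich transcripts, changed sign in H9 like ATG12. ATG3, which hands ATG8 to the lipid, was at 0.34 as measured, -0.44 with the trend removed, and not called by DESeq2. ATG5, the partner of ATG12, was at 0.28 and -0.53, and its rise as measured was not called without the second control library (0.24, adjusted p = 0.11) or the second eIF2A shRNA library (0.23, adjusted p = 0.14); scaling by DESeq2's size factors also ended it.

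The ATG4 proteases, which prime ATG8 and free it from membranes, split in H9. ATG4A had 4.14 and 4.24 CPM with eIF2A shRNA against 2.10 and 2.52 CPM with control shRNA (0.86 ± 0.18), and ATG4C had 5.53 and 6.79 CPM with eIF2A shRNA against 3.64 and 2.76 CPM with control shRNA (0.93 ± 0.17). ATG4D had 56.5 and 51.7 CPM with eIF2A shRNA against 81.1 and 82.2 CPM with control shRNA (-0.59 ± 0.054), and ATG4B, the most abundant of the family, fell by 0.48 ± 0.039. The AT-rich pair was thus high and the GC-rich pair low in the knockdown, without overlap. Of all genes, 43.9% lay above and 41% below both controls in H9. With the trend removed ATG4A (0.29) and ATG4C (0.19) were not called while ATG4B (-0.19) and ATG4D (-0.13) stayed lower. ATG10, the E2-like enzyme for ATG12, had 6.19 and 6.19 CPM with eIF2A shRNA against 9.19 and 9.68 CPM with control shRNA in H9. It was below both controls at a middling GC content of 47.7%, and its fall of 0.61 ± 0.12 (adjusted p = 2.4e-05) was -0.71 with the trend removed. ATG16L1, which places the cascade on the membrane, was called in neither line (0.13 ± 0.053 in HEK293T and 0.09 ± 0.056 in H9, 0.00 there with the trend removed).

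Of the 5 ATG8 transcripts, 3 rose and none fell with eIF2A siRNA in HEK293T, and 4 fell and none rose with eIF2A shRNA in H9. Among all genes, 14.1% rose in HEK293T and 34.3% fell in H9. After removal of the trend, 3 of the 5 were higher and 1 lower in HEK293T, against 14.7% and 13.0% of all genes. In H9, 3 were then lower, against 27.5% of all genes. GABARAPL1 had 58.3 and 56.3 CPM with eIF2A siRNA against 41.9 and 44.8 CPM with control siRNA in HEK293T, the largest rise of the list there, with no overlap (0.40 ± 0.052, adjusted p = 2.1e-07). In H9 the transcript had 38.5 and 41.9 CPM with eIF2A shRNA against 44.2 and 43.8 CPM with control shRNA. This fall (-0.13 ± 0.058, adjusted p = 0.039) was not called without the first eIF2A shRNA library (-0.07, adjusted p = 0.38), without the first control library (adjusted p = 0.13), without the second control library (adjusted p = 0.093), with upper-quartile scaling or with the trend removed (-0.08). GABARAPL2, a small ATG8 protein of the same family, had 87.6 and 89.6 CPM with eIF2A siRNA against 73.7 and 76.4 CPM with control siRNA in HEK293T. Its H9 levels were 34.6 and 37.4 CPM with eIF2A shRNA against 46.4 and 48.0 CPM with control shRNA. Its groups were apart in both lines, above in HEK293T (0.24 ± 0.044, adjusted p = 7.3e-05) and below in H9 (-0.39 ± 0.056, adjusted p = 1.4e-07), and it was the member under 45% GC that fell in H9, to -0.59 with the trend removed.

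GABARAP, the most abundant ATG8 transcript, had 199.3 and 196.9 CPM with eIF2A siRNA against 202.0 and 216.8 CPM with control siRNA in HEK293T, and 215.7 and 220.8 CPM with eIF2A shRNA against 305.0 and 323.0 CPM with control shRNA in H9. The H9 knockdown libraries were far below their controls (-0.52 ± 0.036, adjusted p = 7.2e-15; -0.44 with the trend removed), while HEK293T differed little (-0.08 ± 0.037, not called; -0.13 and called lower with the trend removed). MAP1LC3B, the LC3 protein used most as an autophagosome marker, had 81.0 and 79.0 CPM with eIF2A siRNA against 69.8 and 70.8 CPM with control siRNA in HEK293T (0.19 ± 0.043, adjusted p = 9.8e-04). In H9 it had 51.5 and 51.6 CPM with eIF2A shRNA against 50.6 and 50.3 CPM with control shRNA and was not called (0.03 ± 0.050); with DESeq2's size factors (-0.13) or the trend removed (-0.13) it was called lower. MAP1LC3A, the related LC3A, had 1 and 4 counts with eIF2A siRNA against 0 and 4 counts with control siRNA in HEK293T, which gives no basis for a fold change. In H9 it had 3.75 and 3.69 CPM with eIF2A shRNA against 4.99 and 6.07 CPM with control shRNA, a fall of 0.57 ± 0.17 (adjusted p = 0.0039) that was not called without the second control library (-0.42, adjusted p = 0.094) and was 0.16 with the trend removed. MAP1LC3B and GABARAPL1 have near-identical copies elsewhere in the genome, so counts of either may be incomplete.

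**Figure D3:**
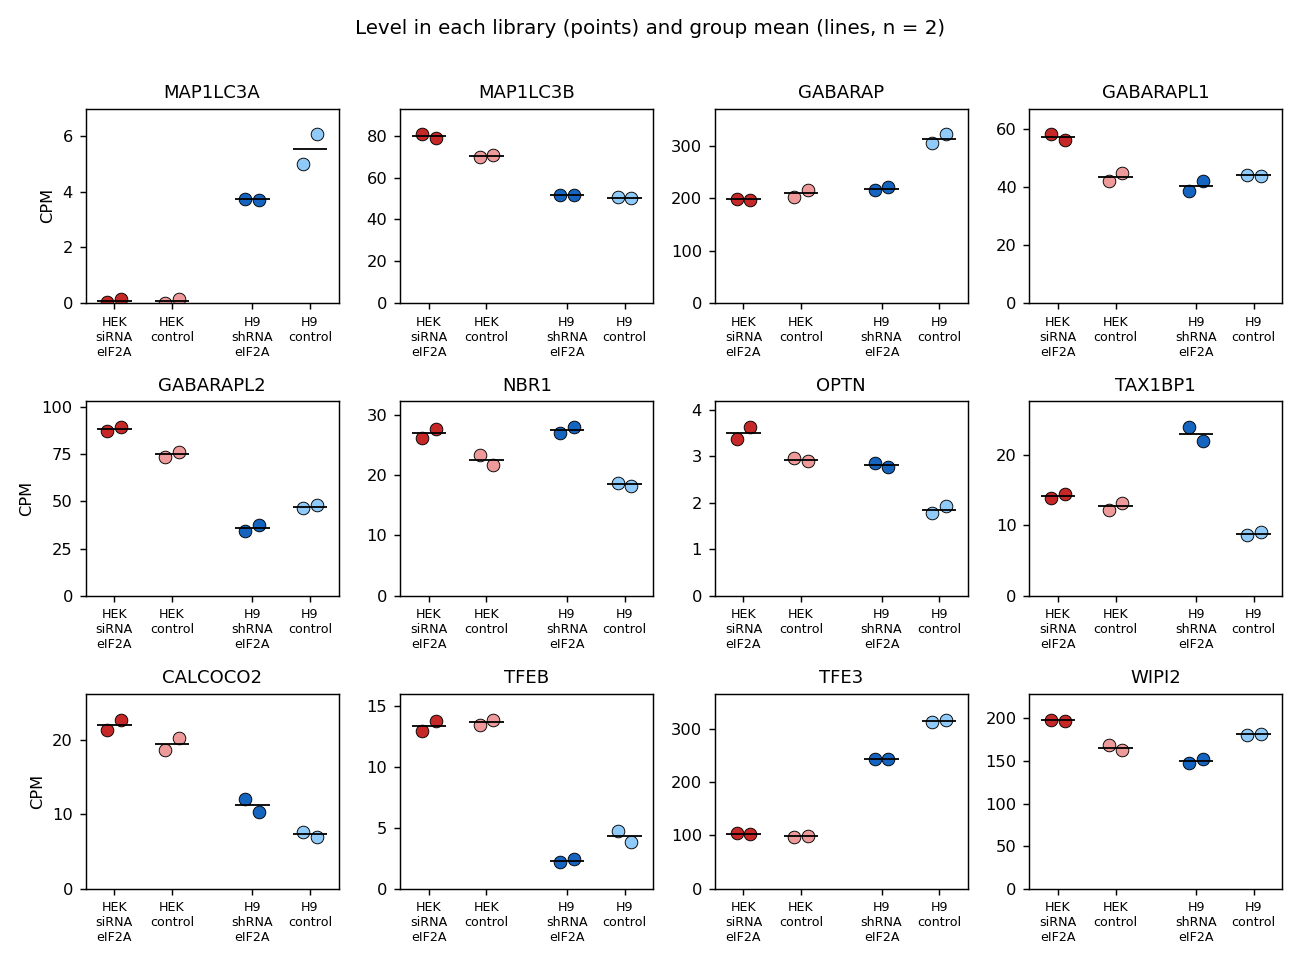
Level in CPM (vertical axes, from 0) of the 5 ATG8 transcripts, the 4 cargo receptors, TFEB, TFE3 and WIPI2 in every library (points) with the mean of each group of 2 (lines), for HEK293T with eIF2A siRNA and control siRNA under arsenite, then H9 with eIF2A shRNA and control shRNA. GABARAPL2 and WIPI2 are above their controls in HEK293T and below them in H9, and TAX1BP1 is at 24 and 22 CPM with eIF2A shRNA against 8.63 and 9.03 CPM with control shRNA.

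All 4 cargo receptors on the list rose in H9, and 1 of 4 rose in HEK293T, where 37% of all genes rose in H9 and 14.1% in HEK293T. Removing the trend left 3 of the 4 called higher in H9, against 22.1% of all genes. NBR1, a receptor for ubiquitinated aggregates and peroxisomes, had 26.2 and 27.7 CPM with eIF2A siRNA against 23.3 and 21.6 CPM with control siRNA in HEK293T. H9 levels were 27.0 and 28.0 CPM with eIF2A shRNA against 18.7 and 18.2 CPM with control shRNA. Knockdown libraries were above both controls in each line (0.27 ± 0.065, adjusted p = 0.0016, and 0.58 ± 0.073, adjusted p = 9.8e-09), and both calls held with the trend removed (0.22 and 0.24). TAX1BP1, a ubiquitin-binding receptor for aggregates and bacteria, had 24 and 22 CPM with eIF2A shRNA against 8.63 and 9.03 CPM with control shRNA in H9, the strongest test result among the rises (1.38 ± 0.091, adjusted p = 1.9e-15). It was still called at 0.60 with the trend removed, and was 0.15 ± 0.084 and not called in HEK293T. CALCOCO2, the NDP52 receptor for bacteria and mitochondria, had 12.1 and 10.3 CPM with eIF2A shRNA against 7.65 and 6.91 CPM with control shRNA (0.62 ± 0.11; 0.33 and called with the trend removed). OPTN, a mitophagy receptor, had 2.86 and 2.76 CPM with eIF2A shRNA against 1.77 and 1.93 CPM with control shRNA (0.60 ± 0.21, adjusted p = 0.0095). These groups did not overlap, but OPTN was not called without the first control library (0.54, adjusted p = 0.065), without the first eIF2A shRNA library (0.57, adjusted p = 0.051) with DESeq2's size factors or with the trend removed (0.03). Summed over the receptors, levels were 66.0 and 63.0 CPM with eIF2A shRNA against 36.7 and 36.0 CPM with control shRNA in H9, and 64.7 and 68.5 CPM with eIF2A siRNA against 57.0 and 57.9 CPM with control siRNA in HEK293T.

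SQSTM1, the p62 receptor and the best known of the class, is not among the 37 genes and was set beside them. It had 288.8 and 282.5 CPM with eIF2A siRNA against 237.5 and 240.5 CPM with control siRNA in HEK293T (0.26 ± 0.032, adjusted p = 1.1e-07). In H9 it had 316.1 and 319.6 CPM with eIF2A shRNA against 290.7 and 296.8 CPM with control shRNA. The small H9 rise (0.11 ± 0.032, adjusted p = 0.0020) was -0.05 with DESeq2's size factors and 0.43 with the trend removed, so its direction there depended on the scaling.

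Both TFEB regulators fell in H9 and neither was called in HEK293T, where 34.3% of all genes fell in H9 and 28.7% were called in HEK293T. TFEB had 2.16 and 2.42 CPM with eIF2A shRNA against 4.76 and 3.85 CPM with control shRNA, the largest fall of the list (-0.92 ± 0.18, adjusted p = 2.0e-05). It had 13.0 and 13.8 CPM with eIF2A siRNA against 13.5 and 13.9 CPM with control siRNA in HEK293T, where the groups overlapped (-0.04 ± 0.088). TFE3 had 243.5 and 243.6 CPM with eIF2A shRNA against 312.7 and 317.1 CPM with control shRNA in H9 (-0.37 ± 0.033), and 104.0 and 101.8 CPM with eIF2A siRNA against 97.2 and 99.1 CPM with control siRNA in HEK293T (0.07 ± 0.037). With the trend removed both stayed lower in H9 (-0.51 and -0.11), and TFE3 was called higher in HEK293T (0.12). ATG3 and ATG14, the members with an E-box core, rose in H9 as measured, while TFEB and TFE3 fell; with the trend removed ATG3 was called lower (-0.44) and ATG14 was not called (0.08).

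Whether the knockdown effect differed between the lines was tested as the difference of the log2 fold changes, H9 minus HEK293T. It was called for 28 of 37 members, 12 higher and 16 lower, where 58.1% of all genes were called, 31.1% higher and 27.0% lower. With DESeq2's size factors 8 were called higher and 17 lower, with ATG3, ATG4A, CALCOCO2 and NBR1 no longer called. Without the trend 5 were higher and 17 lower, against 18.5% and 23.9% of all genes. The largest positive differences were ATG2B (1.83 ± 0.26), RB1CC1 (1.71 ± 0.19), TAX1BP1 (1.23 ± 0.13), PIK3R4 (1.16 ± 0.14) and UVRAG (1.07 ± 0.14), and these 5 were the ones still called higher with the trend removed, at 0.83, 0.55, 0.48, 0.40 and 0.66. The largest negative ones were ATG10 (-0.89 ± 0.18), TFEB (-0.88 ± 0.20), GABARAPL2 (-0.63 ± 0.071), ATG4D (-0.58 ± 0.076) and ULK1 (-0.56 ± 0.067), all still called lower with the trend removed. Of the ATG8 transcripts, MAP1LC3B, GABARAP, GABARAPL1 and GABARAPL2 differed (-0.15, -0.44, -0.53 and -0.63), and all 4 remained lower with the trend removed.

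Some members were called in both lines as measured. They numbered 8, which is 8 of the 11 called in HEK293T and 8 of the 33 called in H9. Of these 8, ATG12 and NBR1 rose in both and ATG2A fell in both, while 5 went opposite ways: ULK1, WIPI2, GABARAPL1 and GABARAPL2 rose in HEK293T and fell in H9, and RB1CC1 fell in HEK293T and rose in H9. Over all genes called in both lines, 39.3% of 3340 went opposite ways. For each of the 5, the difference between the lines passed its own test as measured (adjusted p from 4.3e-11 for WIPI2 to 3.3e-07 for GABARAPL1). After removal of the trend WIPI2 did not (-0.10, adjusted p = 0.11). The set called in both lines also changed with the trend removed, to 10 members. WIPI2 and NBR1 were then higher in both, WIPI1, ATG7 and GABARAP lower in both, and 5 higher in HEK293T and lower in H9: ULK1, ATG12, MAP1LC3B, GABARAPL2 and TFE3. GABARAPL1 (-0.08) and RB1CC1 (0.11) were not called in H9 in that fit, nor ATG2A in HEK293T (-0.07).

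The control libraries show how the machinery stood in each line without knockdown, although line, arsenite and the kind of RNA interference all differ between them. Both these groups also serve as controls above. In H9 with control shRNA against HEK293T with control siRNA, 16 members were higher, 15 lower and 6 not called, where 83.5% of all genes were called, 42.3% higher and 41.2% lower. Without the trend 14 were higher and 17 lower, against 39.5% and 44.6% of all genes. With upper-quartile scaling, which moved the median of all genes to -0.16, 12 were higher and 19 lower. Per kilobase of the matched transcript, GABARAP was the most abundant member in both, at 192.2 CPM per kb in H9 controls and 128.1 in HEK293T controls, followed by WIPI2 at 120.5 in H9 and 110.2 in HEK293T. TFE3 stood at 92.2 CPM per kb in H9 controls, below ATG13 at 100.8 and above ATG101 at 86.1.

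**Figure D4:**
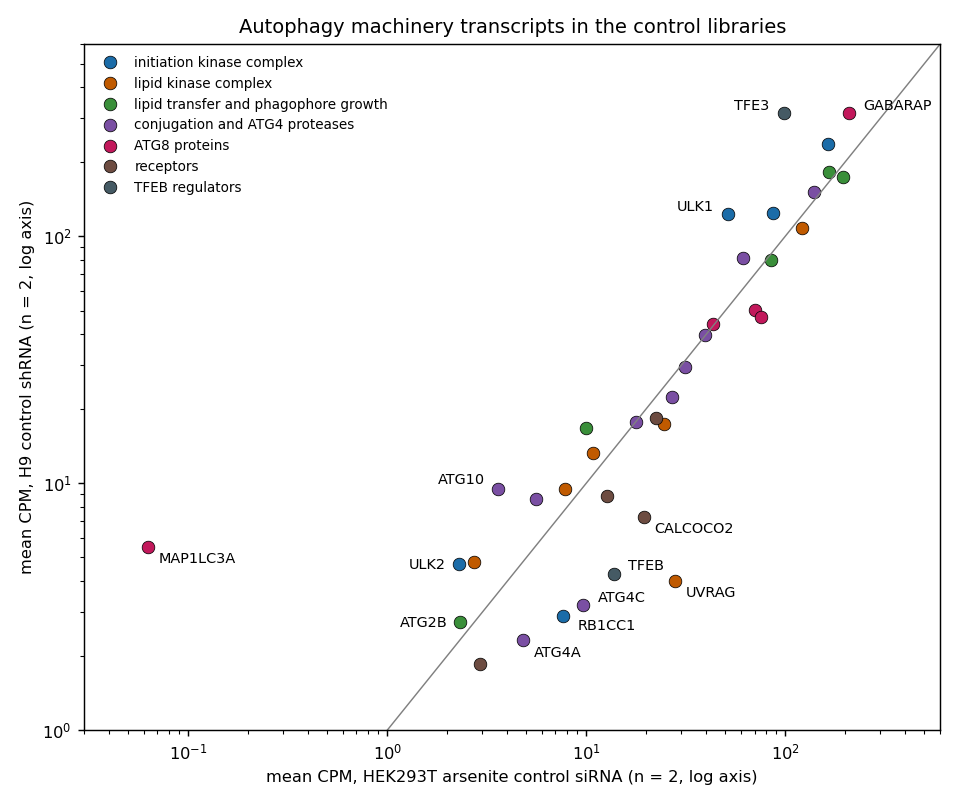
Mean level of each of the 37 genes in the H9 control shRNA libraries (vertical axis, CPM) against the HEK293T arsenite control siRNA libraries (horizontal axis, CPM), 2 libraries each, on log axes and coloured by role. The line marks equal levels; MAP1LC3A lies far to the left of it, TFE3 and ULK1 above it, and UVRAG, TFEB and CALCOCO2 below it.

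Of the members, 5 were at least 2-fold higher and 6 at least 2-fold lower in H9 controls, where 23.5% of all genes were higher and 19.0% lower by as much. With the trend removed these were 3 higher and 5 lower, ULK1 (0.59), ULK2 (0.96) and ATG4A (-0.82) being under 2-fold. UVRAG had the largest negative difference, at 3.78 and 4.25 CPM in H9 controls against 28.7 and 26.9 CPM in HEK293T controls (-2.79 ± 0.10). The TFEB regulators were opposed: TFEB had 4.76 and 3.85 CPM in H9 controls against 13.5 and 13.9 CPM in HEK293T controls (-1.67 ± 0.12), whereas TFE3 had 312.7 and 317.1 CPM in H9 controls against 97.2 and 99.1 CPM in HEK293T controls (1.68 ± 0.035). ULK1 (1.25 ± 0.048), ULK2 (1.02 ± 0.17) and ATG10 (1.39 ± 0.13) were also higher in H9. CALCOCO2 (-1.42 ± 0.10), RB1CC1 (-1.39 ± 0.14), ATG4C (-1.59 ± 0.15) and ATG4A (-1.06 ± 0.17) were lower. MAP1LC3A was present in H9 controls at 4.99 and 6.07 CPM and had 0 and 4 counts in HEK293T controls. All 4 cargo receptors were lower in H9 controls than in HEK293T controls, from -0.28 for NBR1 to -1.42 for CALCOCO2, where 41.2% of all genes were lower. Removing the trend left 3 of the 4 called lower, against 44.6% of all genes. At the other end ATG12 (0.00 ± 0.080), ATG16L1 (0.02 ± 0.056) and GABARAPL1 (0.02 ± 0.056) were not called as measured. With the trend removed ATG12 (0.30, adjusted p = 6.5e-04) and GABARAPL1 (0.14, adjusted p = 0.016) were called higher in H9 controls, and ATG16L1 (0.04) was not called.

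Genes around the machinery were read from lists of 113 other autophagy, mTORC1 and lysosome genes, of which 111 were tested. With eIF2A siRNA 29 rose and 21 fell in HEK293T, and with eIF2A shRNA 41 rose and 49 fell in H9, at a median of 0.02 in HEK293T and 0.00 in H9, where 28.7% of all genes were called in HEK293T and 71.3% in H9. With the trend removed 29 were higher and 22 lower in HEK293T, against 14.7% and 13.0% of all genes. In H9, 39 were then higher and 37 lower, against 22.1% and 27.5% of all genes. Among 14 other selective receptors, 4 rose and 2 fell in HEK293T and 7 rose and 5 fell in H9. NCOA4, the ferritin receptor, had 39.5 and 38.3 CPM with eIF2A siRNA against 30.1 and 30.9 CPM with control siRNA in HEK293T, and 55.9 and 53.9 CPM with eIF2A shRNA against 33 and 32 CPM with control shRNA in H9. It rose in both (0.35 ± 0.055 and 0.76 ± 0.056) and with the trend removed (0.29 and 0.48). WDFY3, the ALFY scaffold, rose in H9 by 1.57 ± 0.089 (0.59 with the trend removed), while the mitochondrial receptors PHB2 and FKBP8 fell in HEK293T (-0.16 and -0.18) and in H9 (-0.55 and -0.50). With the trend removed the H9 values were -0.09 for PHB2, still called lower, and -0.02 for FKBP8, not called.

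Of 15 other core and accessory genes tested, 3 rose and 1 fell in HEK293T, and 8 rose and 6 fell in H9. Over all genes, 14.1% rose and 14.7% fell in HEK293T, and 37% rose and 34.3% fell in H9. After removal of the trend, 2 of the 15 were higher and 6 lower in H9, against 22.1% and 27.5% of all genes. The membrane protein VMP1 rose in HEK293T (0.35 ± 0.053) and in H9 (0.55 ± 0.055), where it was -0.11 with the trend removed. WDR45B, a WIPI relative, rose in HEK293T (0.21 ± 0.036) and fell in H9 (-0.34 ± 0.037; -0.28 with the trend removed), the same pair of directions as WIPI2 had as measured. TECPR1 fell in both (-0.45 in HEK293T and -0.30 in H9, -0.26 in H9 with the trend removed), and the tethering factor EPG5 rose in H9 (1.53 ± 0.11; 0.76 with the trend removed). For fusion with the lysosome, 6 of 13 genes rose and 2 fell in HEK293T, and 4 rose and 7 fell in H9 (3 higher and 7 lower there with the trend removed). The SNARE YKT6 rose in HEK293T (0.15 ± 0.033) and fell in H9 (-0.54 ± 0.033; -0.32 with the trend removed), and the autophagosomal SNARE STX17 rose in H9 (1.25 ± 0.15; 0.64 with the trend removed).

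Of the 32 genes of mTORC1, AMPK and their regulators, which set the activity of ULK1, 8 rose and 6 fell in HEK293T, and 12 rose and 14 fell in H9. Over all genes, 14.1% rose and 14.7% fell in HEK293T, and 37% rose and 34.3% fell in H9. After removal of the trend, 12 of the 32 were higher and 10 lower in H9. The mTORC1 brake TSC2 had 212.0 and 215.2 CPM with eIF2A siRNA against 310.3 and 313.1 CPM with control siRNA in HEK293T, well apart (-0.55 ± 0.032, adjusted p = 9.3e-15; -0.41 with the trend removed). The stress sensor SESN2 fell there too (-0.30 ± 0.034). LAMTOR1, the lysosomal anchor of mTORC1, rose in HEK293T (0.27 ± 0.037) and fell in H9 (-0.65 ± 0.036; -0.09 and still called with the trend removed), and SESN3 rose in H9 (14.8 and 17.0 CPM with eIF2A shRNA against 4.43 and 3.85 CPM with control shRNA; 1.94 ± 0.12, and 0.78 with the trend removed). Of 37 lysosomal genes tested, 8 rose and 10 fell in HEK293T. In H9 10 rose and 17 fell as measured, where 37% of all genes rose and 34.3% fell, but 16 were higher and 8 lower with the trend removed, where 22.1% of all genes were higher and 27.5% lower. The acid hydrolases GAA and GLA fell in HEK293T (-0.39 ± 0.036 and -0.34 ± 0.033), while the proton pump subunit ATP6V0D1 rose there (0.33 ± 0.034) and fell in H9 (-0.52 ± 0.036; -0.07 and not called with the trend removed). The pump subunit ATP6V1A rose in H9 (1.29 ± 0.076; 0.37 with the trend removed).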

How the data were processed

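Polyadenylated RNA was sequenced from 8 libraries of HEK293T and H9 cells after TRIzol extraction with a stranded mRNA kit, per the labels' protocols. Reads were handled with cutadapt and STAR 2.5.2b on hg19, per the submitters' processing notes; the sources used here do not give the counting program, its strand setting or its annotation, so overlapping and antisense genes may share counts. The authors deposited raw counts per RefSeq accession, and 5 special counters entered neither library sizes nor tests; reads in no feature made up 14.95 to 20.84% and reads aligned to several places 4.11 to 4.54%. RefSeq tables named 18888 accessions, GENCODE 225, and 192 had no name. GC content and length came from GENCODE v29 transcripts, matched by accession for 18545 genes and by symbol for 520. No replicate pair was alike within sampling noise. Chi-square per degree of freedom was 4.91 for the HEK293T control siRNA pair, 1.8 for HEK293T eIF2A siRNA, 1.51 for H9 control shRNA and 1.35 for H9 eIF2A shRNA. The test pooled the spread of each gene over all 4 groups, so errors in HEK293T also rest on the pairs that lie closer.

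Genes kept by filterByExpr (14565) were fitted with edgeR 4.0.16 in R 4.3.3: TMM scaling, 4 group means over all 8 libraries (4 residual degrees of freedom), robust quasi-likelihood F test, two-sided, Benjamini-Hochberg adjustment over all genes for each of the 4 comparisons, called at an adjusted p under 0.05. SE is the log2 fold change over the root of F. The GC and length trend of each library was fitted with natural splines (5 degrees of freedom each) and entered as offsets. The code was tested on simulated counts. These held no GC or length trend between knockdown and control, so they cannot check the removal of such a trend. The members and lists were chosen with earlier results of these data known, so no count over them is independent evidence. Every member could be named; levels per library are given for members called in HEK293T, called in H9 with at least 1.5-fold, the ATG8 proteins and the largest differences, and from each other list up to 3 genes with the smallest p per line. Not all genes that this rule took are described. Ribosome profiling was not analysed here. Alternatives were DESeq2 1.42.0 and its size factors, scaling by the upper quartile, all genes without a filter, a filter of 5 CPM in 2 libraries, limma-voom (limma 3.58.1), only the 4 libraries compared, the set number as a replicate block, the GC and length offsets, each library left out, and an adjusted p under 0.01.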

Additional observations from a re-analysis of the deposited data

Results flagged for a closer look

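The knockdown effect differed between H9 and HEK293T (edgeR's quasi-likelihood test of the difference, H9 minus HEK293T, adjusted p under 0.05) for 28 members. Differences above 0 on the log2 scale were ATG2B 1.83, RB1CC1 1.71, TAX1BP1 1.23, PIK3R4 1.16, UVRAG 1.07, ATG4C 1.04, PIK3C3 0.94, ATG4A 0.66, ATG14 0.55, CALCOCO2 0.45, NBR1 0.31 and ATG3 0.25. Differences below 0 were ATG10 -0.89, TFEB -0.88, GABARAPL2 -0.63, ATG4D -0.58, ULK1 -0.56, GABARAPL1 -0.53, WIPI2 -0.53, ATG4B -0.45, GABARAP -0.44, TFE3 -0.44, ATG13 -0.42, ATG101 -0.42, ATG9A -0.38, AMBRA1 -0.23, ATG2A -0.22 and MAP1LC3B -0.15. Line, arsenite and siRNA against shRNA cannot be told apart in them. Leaving out single libraries ended some calls. ATG4A was lost only without the first H9 control (0.52), and CALCOCO2 without the first eIF2A shRNA library (0.31) or the second H9 control. MAP1LC3B kept its call only without the second HEK293T control or the second eIF2A siRNA library. ATG3 (0.10 without the second HEK293T control) kept it only without the first control of either line. ATG2A (-0.09 without the second HEK293T control) kept it only without the first HEK293T control, the second eIF2A siRNA library or the second H9 control. ATG2A and MAP1LC3B were also lost with upper-quartile scaling, the 5 CPM filter or an adjusted p under 0.01. Reads assigned to no counted feature were outside the tests, and stood at 20.84 and 20.63% with eIF2A shRNA, above the H9 controls at 18.84 and 18.39%; their part in the results was not tested.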

How the results depend on the processing

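With 2 libraries per group and 21837052 to 32318668 counts each, members under 5 CPM, such as ATG2B, OPTN and TFEB in H9 controls, have the widest errors. Counts of members called moved over 1.5 times in few settings. In HEK293T, leaving out 1 library gave 7 to 9 higher and 2 to 4 lower, with 2 lower without the second eIF2A siRNA library. With GC and length offsets, with or without the replicate block, 8 were higher in H9 and 5 in the difference. Leaving out 1 library gave 16 to 17 higher and 14 to 16 lower in H9, 10 to 12 higher and 14 to 16 lower in the difference, and 14 to 16 higher and 15 lower between the controls. ATG5 was not called in H9 without the second control (0.24, adjusted p = 0.11) or the second eIF2A shRNA library (0.23, adjusted p = 0.14).

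Same-numbered sets did not deviate together (correlation -0.01 in HEK293T and 0.01 in H9). The labels do not say what a set is, and with 2 libraries per group this does not show whether a set shared a culture or batch. With the set as a replicate block, 7 members were higher and 4 lower in HEK293T, 17 and 15 in H9 (GABARAPL1 lost), 12 and 15 in the difference (MAP1LC3B lost) and 14 and 14 between the controls.

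Among genes called in at least one of the fits compared, directions turned with GC and length offsets in H9 for ATG101 (0.11), BECN1 (-0.04), PIK3C3 (-0.01), WIPI2 (0.15), ATG3 (-0.44), ATG5 (-0.53), ATG12 (-0.46), MAP1LC3A (0.16, or 0.17 with the replicate block), MAP1LC3B (-0.13), VMP1 (-0.11), VPS16 (0.14) and VPS33A (-0.23). In the difference they turned for ATG101 (0.08), PIK3C3 (-0.31, or -0.32 with the block), ATG14 (-0.12 or -0.13), ATG3 (-0.49 or -0.50), ATG5 (-0.64 or -0.63) and ATG12 (-0.79 or -0.80), and without a call in either fit for ULK2 (-0.20), BECN1 (-0.06), ATG7 (-0.15) and OPTN (-0.16). With DESeq2's size factors MAP1LC3B (-0.13), SQSTM1 (-0.05) and SESN2 (-0.12) turned in H9, SQSTM1 and SESN2 also in the DESeq2 test; the cause was not tested. DESeq2's test called 1326 genes higher and 1416 lower in HEK293T and 4008 and 5566 in H9.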
